A study of Papio anubis with 767 samples.

Results

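Serotonin acts through a family of receptors and is cleared by a transporter, and the expression of these genes was followed across a baboon body. The set listed 10 genes by name: the receptor genes HTR1A, HTR1B, HTR1F, HTR2A, HTR2C, HTR3A, HTR4 and HTR7, the neuronal synthesis enzyme gene TPH2 and the transporter gene SLC6A4. Of these, 8 had a row under that symbol among the 29202 rows of the expression table, and HTR3A and TPH2 were not analysed here. The genes were listed by symbol, and the list was made with earlier results of these data known.

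RNA was sequenced from 64 tissues of Papio anubis (the labels also write Papio anubis hamadryas), a day-active monkey. The animals were 12 males, 5 to 6 years old, kept under 12 h light and 12 h darkness with fixed feeding hours. A single animal was killed with pentobarbital and perfused every 2 h from Zeitgeber time 0 (ZT0, lights on) to ZT22, so each tissue has 1 library per time, 767 in all because the iris has 11. Animal and time of day cannot be told apart. The tissues are 22 brain regions, 35 peripheral tissues and 7 tissues of the eye, pineal gland and pituitary.

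Serotonin is made from tryptophan by tryptophan hydroxylase, TPH2 in raphe neurons and TPH1 in gut endocrine cells and the pineal gland. HTR1A, HTR1B and HTR1F encode receptors that couple to inhibitory G proteins, HTR2A and HTR2C receptors that activate phospholipase C, and HTR4 and HTR7 receptors that raise cyclic AMP. SLC6A4 takes serotonin back into cells and is the target of the selective reuptake inhibitors used as antidepressants.

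Levels are FPKM, fragments per kilobase of gene scaled for library depth, so genes can be compared per length. In bulk tissue, fewer cells of a type and less RNA per cell cannot be told apart. The reads counted per library ranged from 32790 to 31812269, with a median of 8255857; only 1 library, amygdala at ZT8, had fewer than 1 M. In 56 libraries a cell type marker list stood far from the rest of the tissue, or depth did. In 91 libraries the expression pattern was most like that of another animal than the labelled one, among them all libraries of the ascending colon, descending colon, duodenum, stomach fundus, testicles and thyroid, each like the animal of the preceding time. The libraries labelled Adrenal cortex had steroid synthesis genes (CYP17A1, CYP11A1, STAR) at a median of 0.153 FPKM and smooth muscle markers at 4377 FPKM, so that label went against its markers.

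Across the 512 combinations of 8 genes and 64 tissues, 93 had a mean of 1 FPKM or more, spread over 42 tissues, and 30 reached 5 FPKM. HTR2A and HTR2C were the widest, each at 1 FPKM or more in 24 tissues. HTR7 reached that level in 15 tissues, SLC6A4 in 10, HTR4 in 7, HTR1F in 6, HTR1B in 5 and HTR1A in 2. HTR1A had no read in 79.9% of libraries, against 15.8% for HTR2A and 16.7% for HTR7. Reads were few: over the 93 combinations the median library held a median of 35 reads of the gene, and in 17 combinations it held under 10.

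**Figure D1:**
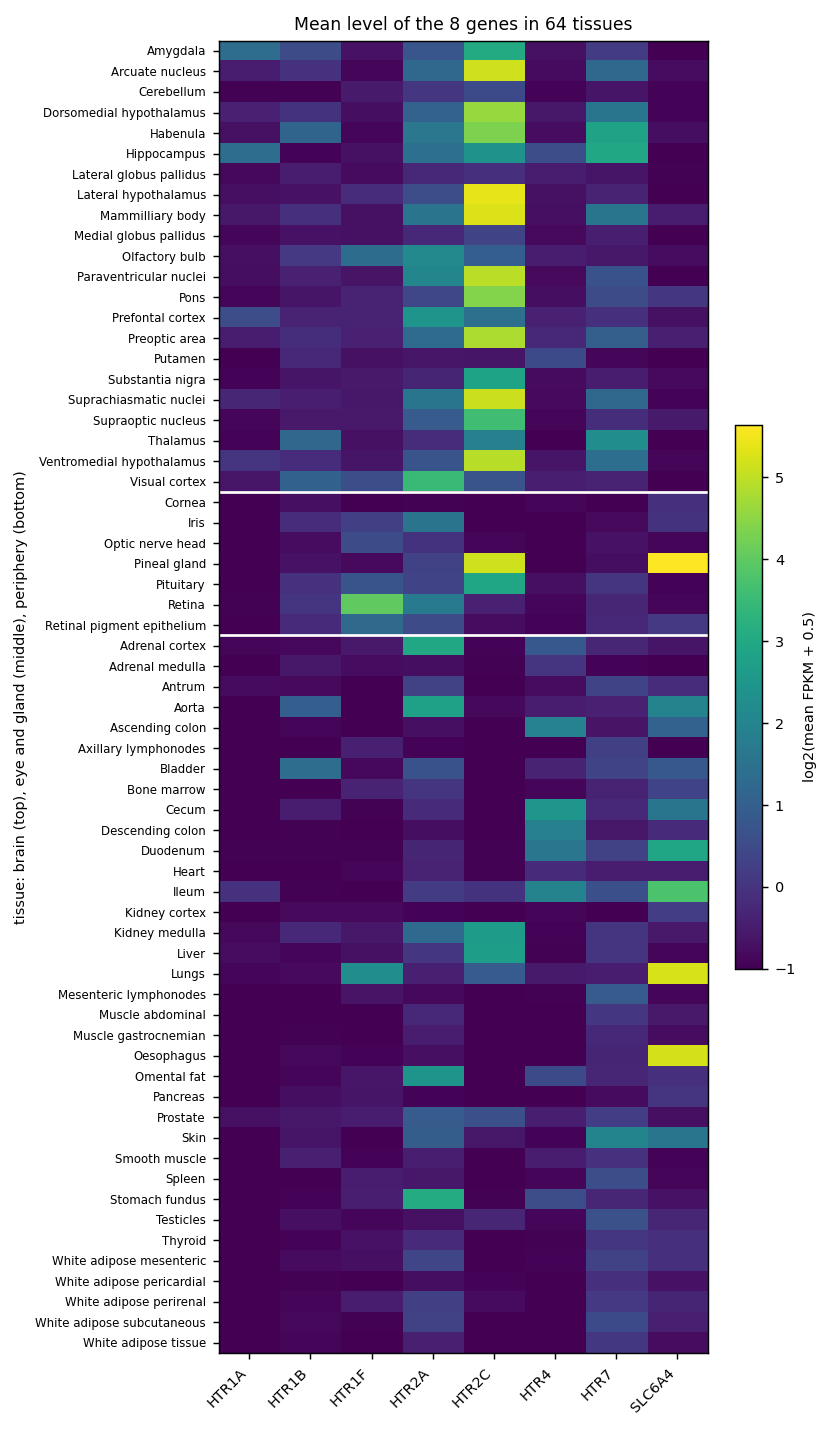
Mean level of HTR1A, HTR1B, HTR1F, HTR2A, HTR2C, HTR4, HTR7 and SLC6A4 (columns) in 64 tissues (rows), as log2(mean FPKM + 0.5), brighter for higher; white lines divide 22 brain, 7 eye and gland and 35 peripheral tissues. HTR2C is bright across the hypothalamic rows, HTR1F in the retina, HTR4 in the intestine, and SLC6A4 in the pineal gland, lungs and oesophagus.

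HTR2C, a receptor with a known role in feeding and one of the most abundant receptors of the choroid plexus, had the highest receptor levels in the set, and they lay in the hypothalamus. In the lateral hypothalamus its mean was 41.7 ± 20.7 FPKM (SD, n = 12), with a lowest library of 11.3, a median of 41.9 and a highest of 78.4. The mammillary body, labelled Mammilliary body, had 38.5 ± 24.6 FPKM, the arcuate nucleus 35.1 ± 21.4 and the suprachiasmatic nuclei, where the master clock sits, 34.3 ± 8.99 (SD, n = 12 each). These libraries overlapped from nucleus to nucleus, and none of these neighbours in the order differed beyond their SD.

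The paraventricular nuclei had 30.6 ± 8.89 FPKM of HTR2C, the ventromedial hypothalamus 30.0 ± 12.9, the preoptic area 27.9 ± 12.0, the dorsomedial hypothalamus 24.1 ± 7.94 and the pons 20.6 ± 12.6. Lower down stood the supraoptic nucleus at 11.7 ± 9.74, the hippocampus at 4.74 ± 1.63, the prefrontal cortex (labelled Prefontal cortex) at 2.23 ± 1.19 and the visual cortex at 1.14 ± 0.904 (SD, n = 12 each). In the order of all 24 tissues at 1 FPKM or more, no tissue differed from the next by more than the larger SD of the pair. The lowest lateral hypothalamus library still lay above the highest hippocampus library, at 8.49 FPKM.

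Several other tissues owed their HTR2C mean to a few libraries. In the pineal gland the mean was 35.2 ± 82.9 FPKM, but the median was 1.60, with 273.8 FPKM at ZT2 and 124.1 at ZT18. Those libraries held TTR, the choroid plexus transthyretin, at 17706 and 5794 FPKM, against 54.1 to 438.5 in the other 10, and without the 4 libraries that stood apart the HTR2C mean was 2.17 ± 2.37 FPKM. The habenula had 119.7 FPKM of HTR2C at ZT12, where TTR was 5607 FPKM, and 4.08 to 16.6 in its other libraries, whose TTR did not pass 295.2. Its mean of 19.6 ± 31.7 FPKM became 10.7 ± 3.67 without the 2 libraries that stood apart.

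The thalamus had 23.3 FPKM of HTR2C at ZT4 with TTR at 45.2, and a mean of 1.41 ± 1.20 over the other 11 libraries against 3.23 ± 6.43 over all. In the pituitary HTR2C was 35.4 FPKM at ZT22, 24.2 at ZT16, 18.2 at ZT2 and 6.30 at ZT10, and at most 0.531 in the other 8 libraries. The median of the hormone genes PRL, GH1 and POMC was 56.4, 658.4, 3615 and 1966 FPKM in those 4 libraries. It was 9306 to 36136 in 7 of the other 8, and 14.03 at ZT4. The part of these contents in the HTR2C levels was not tested.

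The liver, kidney medulla and lungs reached 1 FPKM of HTR2C through libraries with brain markers. The liver had 32.8 and 39.2 FPKM at ZT0 and ZT6, where the neuron marker SNAP25 was at 232.5 and 259.6 FPKM. In the kidney medulla HTR2C was 31.1, 13.9 and 24.8 FPKM at ZT0, ZT6 and ZT8, with SNAP25 at 162.3, 477.9 and 198.3. The lungs had 16.9 FPKM at ZT0, with SNAP25 at 221.6, and no read in the other 11 libraries. Without the 3 libraries that stood apart in each, the mean was 0.00352 FPKM in the liver and 0.0164 in the kidney medulla (n = 9 each). The prostate also reached 1 FPKM of HTR2C, at 1.03 ± 1.00 (SD, n = 12) around a median of 0.826. Without its libraries that stood apart the prostate mean was 1.20 ± 1.02 (SD, n = 10).

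**Figure D2:**
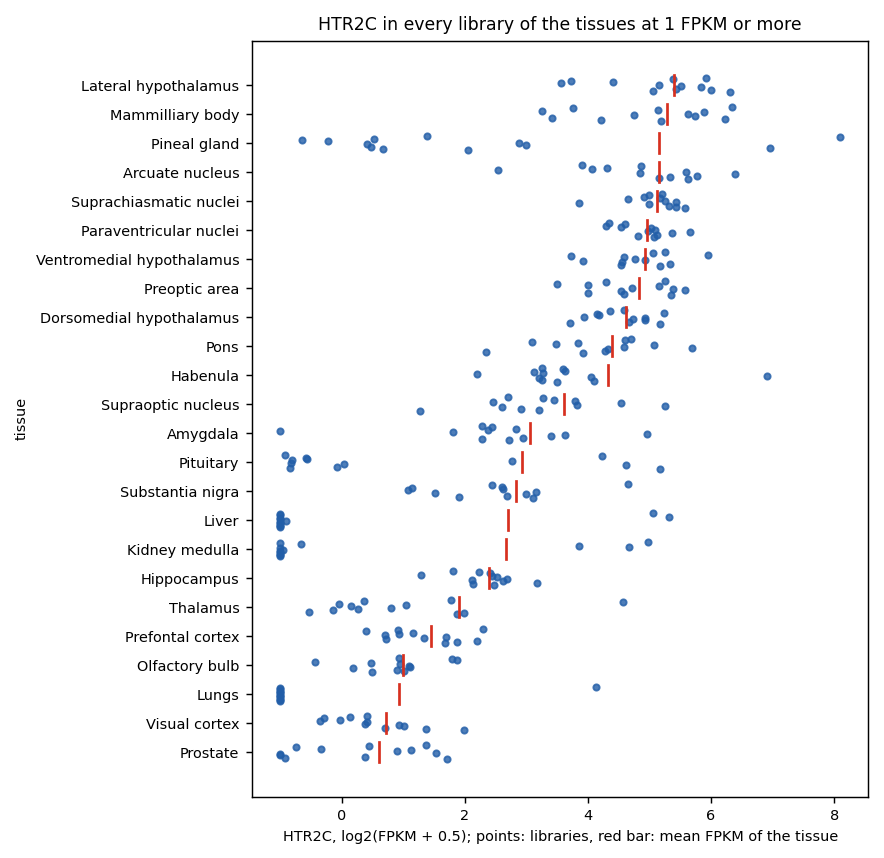
HTR2C in each library (points) of the 24 tissues with a mean of 1 FPKM or more, as log2(FPKM + 0.5); the red bar is the log2 of the mean FPKM plus 0.5. Libraries of the 9 hypothalamic tissues lie between 1.90 and 82.9 FPKM, around their means, whereas the means of the pineal gland, habenula, pituitary, liver, kidney medulla, thalamus and lungs sit far above most of their points.

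HTR2A, the cortical receptor through which classical psychedelics act and a mediator of smooth muscle contraction, was highest in the visual cortex at 10.8 ± 3.88 FPKM (SD, n = 12), with a lowest library of 4.75, a median of 11.3 and a highest of 19.1. The prefrontal cortex had 4.92 ± 1.71 FPKM. Both ranges overlapped, from 4.75 to 7.89 FPKM. In the olfactory bulb the mean was 3.88 ± 3.81 FPKM, and in the retina 2.82 ± 0.865.

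Outside the brain, HTR2A was highest in tissues rich in smooth muscle markers (ACTG2, DES, ACTA2, CNN1). The stomach fundus had 7.94 ± 4.42 FPKM, the libraries labelled Adrenal cortex 7.21 ± 3.75, the aorta 6.45 ± 4.13 and the omental fat 4.90 ± 3.99 (SD, n = 12 each). HTR2B, another receptor gene, nearly repeated between the stomach fundus and the libraries labelled Adrenal cortex. It was 35.3, 0.845 and 59.3 FPKM in the latter at ZT0, ZT2 and ZT6. In the stomach fundus it was 34.8, 0.928 and 61.3 at ZT2, ZT4 and ZT8. At ZT22 it was 50.7 in the omental fat and 58.6 in the libraries labelled Adrenal cortex. Whether these labels hold separate tissues was not tested. The smooth muscle markers stood at a median of 2959 FPKM in the stomach fundus and 2348 in the aorta. In the omental fat these markers were at 4.70 to 30.1 FPKM from ZT0 to ZT6 and at 722.8 to 4655 later, so its mean mixes unlike libraries. Without those of ZT0 to ZT6 its HTR2A mean was 6.94 ± 3.27 FPKM (SD, n = 8). The bladder, at 603.6 FPKM of these markers, had 1.09 ± 0.553 FPKM of HTR2A.

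HTR1F, a receptor targeted by the migraine drug lasmiditan, was highest in the retina. Its mean there was 15.8 ± 9.84 FPKM (SD, n = 12), and the step down to the next tissue, the lungs at 4.27 ± 2.39, was larger than either SD, although the ranges overlapped. Lung libraries ran from 0 to 8.17 FPKM with a median of 4.03. The library at 0 was that of ZT0, which held the brain markers given above, and without it the mean was 4.66 ± 2.07. The olfactory bulb followed at 2.03 ± 1.02 FPKM.

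In the retinal pigment epithelium HTR1F was 10.3 FPKM at ZT18 and 0.254 to 2.12 in the other libraries. The ZT18 library had the most of the ganglion cell markers in that tissue, a median of 27.1 FPKM against 0.0506 to 8.57, and the mean without it was 1.18 ± 0.666 FPKM against 1.94 ± 2.70 with it. Other marker medians also spread widely over the pigment epithelium libraries, photoreceptor from 22.4 to 1345 FPKM and neuron from 3.47 to 226.4. The part of these contents in the HTR1F level was not tested. The pituitary had 1.16 ± 0.944 FPKM and the visual cortex 1.01 ± 0.424.

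HTR1A, the inhibitory receptor found on raphe neurons and in limbic areas, reached 1 FPKM in the hippocampus, at 2.09 ± 1.86, and the amygdala, at 2.07 ± 1.18 (SD, n = 12 each). Hippocampus libraries ran from 0.239 to 6.32 FPKM around a median of 1.45, and amygdala libraries from 0 to 4.42 around 2.04. The amygdala library at 0 was the one of 32790 reads. Neither tissue differed from the other, nor from the prefrontal cortex at 0.981 ± 0.516, beyond their SD.

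HTR1B, which sits on serotonin axon terminals and in blood vessel walls, was low throughout. Its means were 2.09 ± 1.85 FPKM in the bladder, 1.78 ± 0.897 in the thalamus, 1.71 ± 1.71 in the habenula, 1.57 ± 1.26 in the visual cortex and 1.47 ± 1.07 in the aorta (SD, n = 12 each). All 5 tissues overlapped, and no neighbouring pair differed beyond its SD.

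HTR4, known for promoting gut motility, was the intestinal receptor of the set. The cecum had 5.11 ± 1.11 FPKM, with a lowest library of 3.14, a median of 5.41 and a highest of 6.91. The ileum had 3.42 ± 1.27, the ascending colon 3.34 ± 1.21, the descending colon 3.18 ± 0.725 and the duodenum 2.53 ± 0.899 (SD, n = 12 each). The cecum exceeded the ileum by more than the larger SD, although their ranges overlapped. No other neighbouring pair of these intestinal tissues differed beyond its SD. The libraries labelled Adrenal cortex came next at 1.28 ± 1.04 FPKM, below the duodenum by more than the larger SD, with overlapping ranges. In the brain HTR4 reached 1 FPKM in the hippocampus, at 1.02 ± 0.676.

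HTR7, a receptor linked to hippocampal signalling and to shifts of the circadian clock, was highest in the hippocampus at 7.46 ± 2.26 FPKM, with libraries from 3.02 to 10.8 around a median of 7.61. The habenula had 6.64 ± 4.14, the thalamus 4.25 ± 2.54 and the dorsomedial hypothalamus 2.50 ± 2.34. The suprachiasmatic nuclei had 1.86 ± 0.859. Outside the brain the skin led with 3.48 ± 1.91 FPKM, ahead of the mesenteric lymph nodes at 1.38 ± 0.334 and the spleen at 1.01 ± 0.564 (SD, n = 12 each).

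The ileum reached 1.05 ± 1.93 FPKM of HTR7 through ZT0, at 6.24, and ZT4, at 3.79. Both libraries had a median of the neuron markers above 100 FPKM, at 143.8 and 109.4, against 0.427 to 10.8 in the other 10. Without the 3 ileum libraries that stood apart the mean was 0.262 ± 0.145 FPKM.

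SLC6A4, the reuptake transporter, reached 1 FPKM in 9 peripheral tissues and the pineal gland, and in none of the 22 brain tissues. Its highest brain mean was 0.529 ± 1.07 FPKM in the pons, where 9 libraries had at most 1 read and 1, ZT16, had 59. Of the 4 serotonin neuron markers measured, DDC was at 0.396 to 12.1 FPKM in the pons libraries, GCH1 was above 0 in 5 of the 12, LMX1B in 4 (not ZT16) and FEV in 1 (ZT16). Their median was at most 0.741 FPKM. The dissected regions do not include a tissue labelled raphe.

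In the pineal gland SLC6A4 had a mean of 49.4 ± 52.3 FPKM, with a lowest library of 0.740, a median of 18.2 and a highest of 152.6. The lowest, ZT10, also had the melatonin synthesis gene ASMT at 1.91 FPKM and TPH1 at 0.663, against 586.7 or more and 216.6 or more in the other 11, so that library went against its label. The other libraries formed no day or night group: SLC6A4 was 123.4 FPKM at ZT0, 84.6 at ZT6 and 152.6 at ZT16, between the ZT6 and ZT0 values at ZT18, and 8.95 to 48.9 at the remaining times other than ZT10.

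The lungs had 37.3 ± 16.1 FPKM of SLC6A4, from 10.3 to 63.4 around a median of 39.1, and the oesophagus 36.8 ± 9.61, from 20.3 to 54.2 around 37.6 (SD, n = 12 each). The oesophagus is lined by squamous epithelium, whose keratins KRT13 and KRT4 had a median of 43326 FPKM there. The cornea, where these keratins had a median of 649.9 FPKM, did not reach 1 FPKM of SLC6A4. Platelets also carry this transporter. The median of the platelet markers was at most 2.22 FPKM in the lung libraries and 4.17 in those of the oesophagus. That of the endothelial markers was 49.4 FPKM in the lungs and 4.92 in the oesophagus. The part of these contents in the SLC6A4 levels was not tested. The step from the oesophagus down to the ileum, at 13.1 ± 8.40 FPKM, was larger than either SD.

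Along the intestine, the SLC6A4 means of the ileum and duodenum, where the median of the enterocyte markers was high, were above those of the cecum and ascending colon. The duodenum had 7.14 ± 5.46 FPKM, the cecum 2.51 ± 1.66 and the ascending colon 1.64 ± 1.30 (SD, n = 12 each). The median of the enterocyte markers (FABP2, VIL1, APOA4, ALPI, SI) was 83.3 FPKM in the duodenum, 75.2 in the ileum and 0.0892 in the cecum. Of these markers, VIL1 was not low in the cecum, at 53.3 to 103.9 FPKM, beside 12.4 to 163.6 in the ileum. The duodenum had the higher marker median but a lower SLC6A4 mean than the ileum. The share of this content in the levels was not tested.

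**Figure D3:**
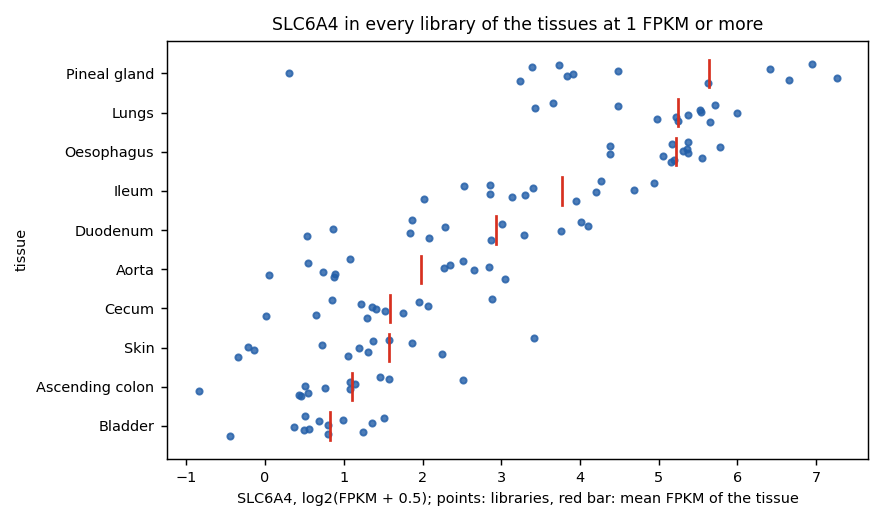
SLC6A4 in each library (points) of the 10 tissues with a mean of 1 FPKM or more, as log2(FPKM + 0.5); the red bar is the log2 of the mean FPKM plus 0.5. The pineal gland is the most spread, from 0.740 to 152.6 FPKM, while the lungs and the oesophagus lie close together above the ileum.

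Each gene was next compared in each tissue with the same animal's mean over the other tissues of its class, with limma over all genes at an adjusted p under 0.05. Of the members' combinations in the brain, 37 of 154 (24.0%) were higher and 60 (39.0%) lower, against 25.3% and 30.4% over all genes. In the periphery 44 of 245 (18%) were higher and 135 (55.1%) lower, against 25.9% and 43.0%. In the eye and gland class 5 of 28 (17.9%) were higher and 13 (46.4%) lower, against 32.3% and 37.9%. Lower calls outnumbered higher ones in each class. Without pairing by animal the counts over the 3 classes were 61 higher and 45 lower, in place of 86 and 208.

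Tissues named below as higher were mostly chosen for their high means in these same values, so their differences are no separate support. All differences are on the log2(FPKM + 0.5) scale. HTR2C was higher in 10 of 22 brain tissues and lower in 9, by 2.54 ± 0.20 (SE) in the lateral hypothalamus (adjusted p = 5.26e-07, limma) and 2.40 ± 0.15 in the suprachiasmatic nuclei (adjusted p = 3.58e-08), in 12 of 12 animals each. It was lowest against the rest of the brain in the putamen, at -3.60, and the lateral globus pallidus, at -3.05. Its habenula difference of 0.94 ± 0.27 (adjusted p = 0.0104) did not pass without pairing by animal (adjusted p = 0.342).

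HTR2A was higher in the visual cortex by 2.70 ± 0.13 (SE; adjusted p = 9.05e-10, limma) and in the prefrontal cortex by 1.59 ± 0.13 (adjusted p = 2.43e-07). HTR7 was higher in the hippocampus by 2.58 ± 0.13 (adjusted p = 1.43e-09) and the habenula by 2.25 ± 0.20 (adjusted p = 2.54e-06). HTR1A was higher in the hippocampus by 1.67 ± 0.22 (adjusted p = 1.24e-05) and in the amygdala by 1.76 ± 0.25 (adjusted p = 0.000133), the latter in 11 of 12 animals. HTR7 was lower in the visual cortex, by -0.93 (adjusted p = 0.00018), and in the prefrontal cortex, by -0.63 (adjusted p = 2.94e-05), as was HTR2C, by -2.32 and -1.52. Over the 9 hypothalamic tissues, mammillary body included, HTR7 was called higher in 5 and lower in 2, HTR2A higher in 3 and lower in none, and HTR1A higher in 1, the ventromedial hypothalamus (0.50), and lower in 3.

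In the periphery and the eye, HTR4 was higher in the cecum by 2.88 ± 0.09 (SE; adjusted p = 1.48e-12, limma), HTR1F in the retina by 3.80 ± 0.20 (adjusted p = 7.79e-11) and HTR7 in the skin by 1.99 ± 0.17 (adjusted p = 1.23e-07), each in 12 of 12 animals. SLC6A4 was higher in the oesophagus by 5.09 ± 0.12 (adjusted p = 7.48e-14), the lungs by 4.98 ± 0.22 (adjusted p = 1.13e-09) and the pineal gland by 5.21 ± 0.49 (adjusted p = 6.82e-07). HTR2A was higher in the stomach fundus by 2.90 ± 0.24 (adjusted p = 2.54e-07). All stomach fundus libraries matched another animal, so its pairs do not come from the same animals.

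Brain and periphery as wholes were compared within each animal. All 8 genes passed: 6 were higher in the brain, where 40.6% of all 20116 genes were, and 2 were lower, where 48.4% were, so a call here sets no gene apart. HTR2C had the largest difference, 3.59 ± 0.10 (SE; adjusted p = 9.44e-16, limma). HTR2A followed at 0.82 ± 0.05, HTR7 at 0.56 ± 0.07, HTR1B at 0.50 ± 0.04, HTR1A at 0.46 ± 0.03 and HTR1F at 0.21 ± 0.02. HTR1B, HTR1A and HTR1F were low on both sides, with log2(FPKM + 0.5) brain means of -0.25, -0.51 and -0.52. Their periphery means were -0.75, -0.96 and -0.73. SLC6A4 was lower in the brain by -1.09 ± 0.04 (adjusted p = 1.96e-14) and HTR4 by -0.29 ± 0.04 (adjusted p = 2.14e-06). Each direction held in 12 of 12 animals.

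The balance of receptors differed between tissues. Of 15 receptor rows of the HTR family, HTR2C had the highest mean in 13 of 22 brain tissues, HTR1E in 4, HTR2A in 3, and HTR5A and HTR7 in 1 each. In the lateral hypothalamus HTR2C made 86.5% of the summed receptor FPKM, and in the retina HTR1F made 73.6%. HTR7 led in 11 of 35 peripheral tissues, but mostly at low levels, as in the gastrocnemius muscle at 0.334 FPKM. In the cerebellum none of the listed receptors led: HTR5A, at 40.2 FPKM, made 89.0%.

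Of 25 other serotonin genes (enzymes, vesicular and low-affinity transporters, transcription factors of serotonin neurons, further receptors), 22 had a row and 20 reached 1 FPKM in some tissue. TPH1 stood at 666.7 ± 344.7 FPKM in the pineal gland and 17.5 in the retina. In the intestine, beside HTR4 and SLC6A4, TPH1 was 4.84 FPKM in the descending colon and 2.32 in the ileum, and the ileum led for HTR1D at 15.3. HTR2B, which like HTR2A activates phospholipase C, was highest in the stomach fundus at 23.7 ± 23.6 FPKM. In the libraries labelled Adrenal cortex, whose values nearly repeated these as given above, it was 21.7.

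The genes most like each member over the 64 tissue means are given as a description, by Pearson's r of log2(mean FPKM + 0.5) among 16217 genes; the tissues share animals and some share stray tissue. HTR2C was most like CALY (r = 0.915), RTP5 (0.906) and FNDC9 (0.902). HTR4 was most like ISX (0.844), ATOH1 (0.836) and HHLA2 (0.836). HTR1A was nearest to FAM163B (0.816), HTR2A to NCALD (0.783), SLC6A4 to CDKN2B (0.673), HTR1B to CRH (0.668) and HTR7 to NTS (0.622). The nearest row to HTR1F, Metazoa_SRP (0.743), bears the name of an RNA family and not of 1 gene, and GJA10 came next (0.743). The next genes were ICAM5 (0.805) and DOC2A (0.789) for HTR1A, ANKRD34C (0.642) and GPR153 (0.638) for HTR1B, ARHGEF25 (0.772) and PNCK (0.731) for HTR2A, BTBD11 (0.585) and GNG2 (0.572) for HTR7, LTA4H (0.633) and MALL (0.621) for SLC6A4, and Y_RNA (0.732), another family name, for HTR1F after GJA10.

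Time of day was examined by fitting a 24 h cosine to the 93 combinations at 1 FPKM or more, with limma. Of these, 6 (6.45%) passed an adjusted p of 0.05, beside 6.56% of all gene and tissue combinations, and 16 had an unadjusted p under 0.05 (17.2%, against 23.6% of all). The members as a group thus had no more calls than the background. Of the 16, 10 peaked from ZT12 to ZT24, whereas 52 of all 93 fitted peaks fell from ZT0 to ZT12; this difference was not tested. The other serotonin genes gave 22 calls in 560 combinations (3.93%).

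HTR1F in the retina had the smallest p of all 93 combinations and of all 11589 genes tested in the retina, but did not pass (adjusted p = 0.0650, limma; chosen with earlier results known). From ZT0 to ZT10 its values were 23.3, 15.5, 8.77, 4.49, 6.38 and 6.91 FPKM, and from ZT12 to ZT22 they were 10.6, 10.3, 20.6, 33.4, 32.4 and 16.8. HTR1F was thus lowest from ZT6 to ZT10 and highest at ZT18 and ZT20. Every library rested on 56 reads or more. The amplitude was 1.14 ± 0.13 (SE) on the log2 scale, a fitted peak 4.88 times the trough, at ZT19.8.

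No gene was called in the retina (0.0% of those tested), although 1640 had an unadjusted p under 0.05. The adjusted p of HTR1F ran from 0.00494 to 0.166 over 21 other settings and passed in 4 of them, among them the fit with the library axis as covariate. In that fit 192 of 11589 genes were called in the retina. That axis is the first principal component of how libraries deviate from their tissue means. Its mean per animal was 0.958 at ZT6 and -0.982 at ZT22, so the axis itself varied with time of day. The covariate thus overlaps with the 24 h terms, and the fit cannot separate them. Without the ZT14 animal the adjusted p of HTR1F was 0.0414, and without the ZT22 animal 0.0114 (limma). The share of genes with an unadjusted p under 0.05 was 38.3% and 13.3% in these fits, against 14.2% with all animals. Beside HTR1F, the median of the amacrine cell markers ran from 24.4 FPKM at ZT6, the library with the least HTR1F, to 38.5 at ZT20, and that of the ganglion cell markers from 6.01 at ZT20 to 25.4 at ZT14. Their part in the HTR1F profile was not tested. RPE65, of the pigment epithelium, was at most 37.0 FPKM.

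**Figure D4:**
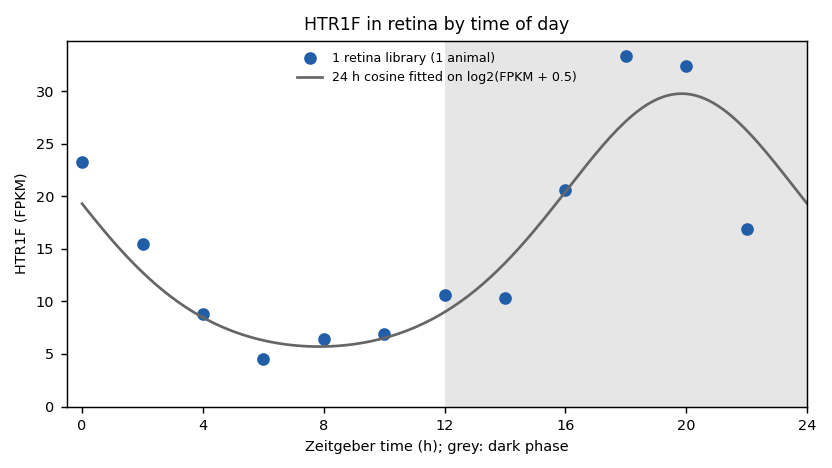
HTR1F in the 12 retina libraries (FPKM, linear axis from 0) against Zeitgeber time in h, 1 animal per point, with the fitted 24 h cosine and the dark phase in grey. Values are 23.3 FPKM at ZT0, 4.49 at ZT6 and 33.4 at ZT18.

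HTR2A accounted for 3 of the 6 calls, in tissues with smooth muscle. In the stomach fundus its libraries ran from 1.58 FPKM at ZT12 to 15.5 at ZT20, and the fitted amplitude was 1.01 ± 0.23 with a peak at ZT20.4 (adjusted p = 0.0183, limma; 34.4% of genes called there). In the libraries labelled Adrenal cortex they ran from 1.89 at ZT10 to 13.1 at ZT18, with an amplitude of 0.97 ± 0.19 and a peak at ZT18.1 (adjusted p = 0.0235; 18.3% called). In the omental fat they ran from 0.253 at ZT6 to 12.5 at ZT18, with an amplitude of 1.63 ± 0.28 and a peak at ZT16.8 (adjusted p = 0.0162; 37.7% called).

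These 3 series share animals and content and are not independent, and the HTR4 call given below comes from 1 of them. The HTR2A low of 1.58 FPKM in the stomach fundus at ZT12 met 1.89 at ZT10 in the libraries labelled Adrenal cortex. In the omental fat HTR2A was 1.39 FPKM at ZT10, its lowest value after ZT6. Stomach fundus libraries matched the animal of the preceding time, so by that match these 3 values belong to 1 animal. In the same libraries the smooth muscle markers stood at 971.2, 1219 and 722.8 FPKM, the lowest of the stomach fundus and of the libraries labelled Adrenal cortex, and the lowest of the omental fat after ZT6.

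In the omental fat the smooth muscle markers were at 4.70 to 30.1 FPKM from ZT0 to ZT6 and at 722.8 to 4655 later, and HTR2A was at 0.253 to 1.30 FPKM and then at 1.39 to 12.5. Without the 4 early libraries the omental fat amplitude was 0.82 and did not pass (adjusted p = 0.175). In the libraries labelled Adrenal cortex the markers ran from 1219 to 6016 FPKM from ZT0 to ZT10 and from 3266 to 5596 later, and HTR2A from 1.89 to 6.32 and then from 7.69 to 13.1. The part of this content in the HTR2A profiles was not tested. HTR4 also passed there, with an amplitude of 1.03 ± 0.22 and a peak at ZT16.8 (adjusted p = 0.0271). It had 0.257 to 0.917 FPKM from ZT0 to ZT10 and 0.821 to 2.87 from ZT12 to ZT22, on 3 to 38 reads.

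**Figure D5:**
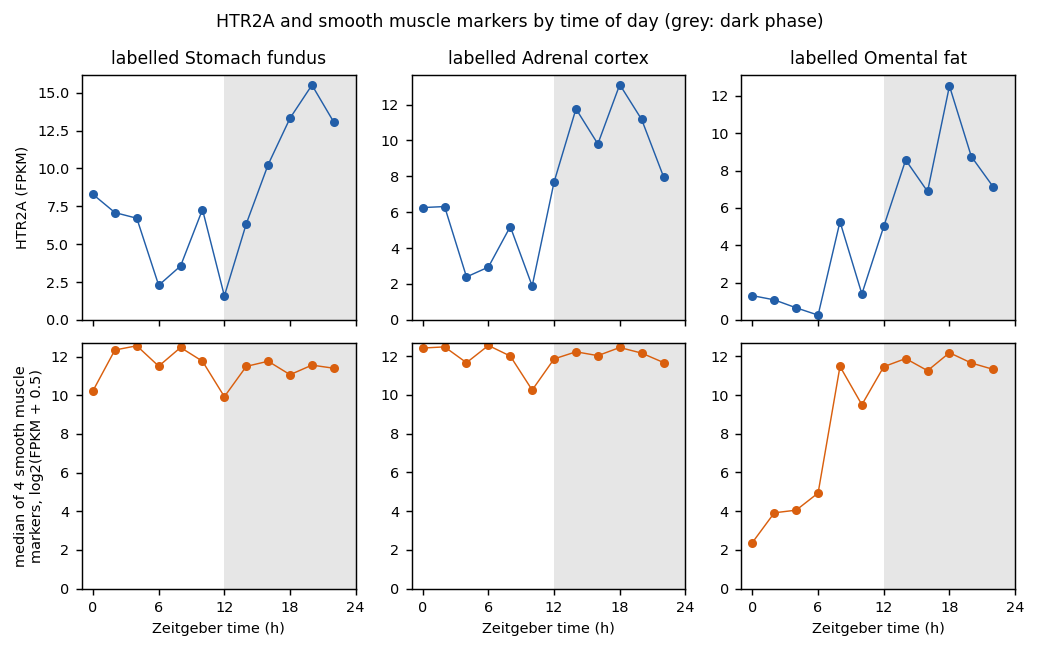
HTR2A (upper row, FPKM) and the median of 4 smooth muscle markers (lower row, log2(FPKM + 0.5)) in libraries labelled Stomach fundus, Adrenal cortex and Omental fat against Zeitgeber time in h, dark phase in grey, 1 animal per point. The highest HTR2A values fall in the dark phase in all 3, and the markers step up between ZT6 and ZT8 in the omental fat.

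The other calls were of HTR2C. In the paraventricular nuclei it ran from 19.1 FPKM at ZT4 to 49.9 at ZT14, with an amplitude of 0.48 ± 0.12 and a peak at ZT14.7 (adjusted p = 0.0354, limma; 20.9% of genes called there). The neuron marker SNAP25 was 31.0 and 62.2 FPKM at ZT0 and ZT4, the libraries with the 2 lowest HTR2C values, and 155.1 or more at the other times. At ZT2 and ZT6 HTR2C was also low, 23.7 and 22.6 FPKM, with SNAP25 at 288.2 and 208.1. The median of the neuron markers was likewise lowest at ZT0 and ZT4. It was 91.3 and 97.8 FPKM at ZT14 and ZT16, where HTR2C was highest, at 49.9 and 40.6. The call was kept in 12 of 21 other settings and was lost without the animal of ZT0, ZT4, ZT6, ZT10, ZT14, ZT16 or ZT18. In the visual cortex HTR2C rose from 0.283 FPKM at ZT8 to 3.47 at ZT22, on 9 to 74 reads, with an amplitude of 0.77 ± 0.20 and a peak at ZT18.8 (adjusted p = 0.0400; 20.4% called). That call was kept in 8 of 19 other settings; when 1 animal was left out it passed only without ZT2 or ZT18, and without ZT22 the gene fell under the level filter. SNAP25 was lowest there at ZT22, 416.4 FPKM, and highest at ZT4, 1111. The part of this content in the HTR2C profiles was not tested.

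With the library axis as covariate none of the 6 calls passed, with adjusted p from 0.138 in the omental fat to 1.00 in the stomach fundus. Because that axis itself varied with time of day, this fit cannot separate a 24 h profile from the axis. The amplitudes of HTR2A in this fit were 1.44 in the omental fat, 0.77 in the stomach fundus and 0.54 in the libraries labelled Adrenal cortex, where HTR4 had 0.98. Those of HTR2C were 0.13 in the paraventricular nuclei and 0.49 in the visual cortex. Among the combinations not called, SLC6A4 in the ascending colon had an amplitude of 0.82 ± 0.23 and a peak at ZT4.05 (adjusted p = 0.116, limma), and HTR2C in the lateral hypothalamus 0.87 ± 0.26 and ZT18.7 (adjusted p = 1.00). All ascending colon libraries matched the animal of the preceding time, so by that match the SLC6A4 peak there would fall 2 h earlier. Averaged over the 22 brain tissues, 2 members passed the level filter. HTR2C had an amplitude of 0.22 and HTR2A of 0.05, neither had an unadjusted p under 0.05, and neither was called by limma, beside 31.6% of the 12660 genes tested.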

How the data were processed

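The study sequenced polyA-selected RNA in stranded libraries, with 64 tissues taken from 1 animal per time. The table deposited by the authors holds FPKM values for 29202 Ensembl rows. STAR, featureCounts and DESeq2 are named in the submitters' processing notes; for their versions and the genome build, nothing is given in the sources used here. Values of every row above 0 came out as integer read numbers (tolerance 0.01) once a gene step and a library step were divided out, which gave the read totals and the reads per gene; 8 columns carry an unexplained suffix (approx). Tests used limma 3.58.1 under R 4.3.3, with its variance trend, on log2(FPKM + 0.5), for genes averaging at least 1 FPKM, adjusted by Benjamini-Hochberg over all genes of the fit. They covered a 24 h cosine and sine within each tissue and in the brain mean, and differences within the labelled animal, between a tissue and its class or between brain and periphery. The animal is the replicate. The scripts were tested on simulated data. A library stood apart when the median of a marker list was 20 times above its tissue's and at least 10 FPKM, or as far below it, or when it had under 1 M reads. Lists for pineal, steroid, alveolar, squamous, pigment epithelium and pituitary cells were added after seeing the data. Members and lists were chosen with earlier results of these data known. Named are all members, the 3 genes most like each, every rhythm called or else the 5 of smallest p, HTR1F in retina, and for each member its highest tissues; single genes of library content (such as SNAP25 and TTR) were named after their values were seen. No coordinates or sequences were used, and 1 gene of library content is not reported here.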

Additional observations from a re-analysis of the deposited data

How the results depend on the processing

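The members' rhythms called numbered 6. With the library axis, which itself varied with time of day, as covariate none of those passed and 1 other did (HTR1F in the retina). When each animal was left out the total was 2 to 7, and the counts of 2 came without ZT6, ZT16 or ZT20. HTR2A and HTR4 in the libraries labelled Adrenal cortex lost their calls without any of these 3 animals, HTR4 also without ZT14, and HTR2A in the stomach fundus without ZT20. The HTR2C calls passed in 12 of 21 settings in the paraventricular nuclei and 8 of 19 in the visual cortex; the cause was not tested. In the brain mean, 1 member was called with no filter on low values (HTR1A, which enters only then) and 0 to 1 when each animal was left out (HTR7 without ZT6, where it enters the test, adjusted p = 0.0489 by limma). Against the rest of the class, a filter at 5 FPKM, which tests fewer genes, gave 54 higher and 123 lower, the fit with no replicate block 45 lower, and leaving out each animal 77 to 82 higher and 195 to 203 lower. Against the periphery, the 5 FPKM filter left 3 of 6 higher, and leaving out each animal gave 6 and 2 as before. Other settings (pseudocounts of 0.1 and 1 FPKM, median of ratios scaling, no variance trend, no libraries that stood apart and, chosen after seeing the data, none that matched another animal) kept the counts within 1.5 times. Leaving out the libraries that matched another animal removed all 12 of the stomach fundus, so the HTR2A call there could not be tested. Without the libraries that stood apart, HTR2A in the omental fat lost its call. Of 24 named tissue differences, chosen with the tissue means known, 1 lost its call, HTR2C in the habenula without pairing. A planned count test with edgeR was not run, since the values are FPKM. Few reads per gene limit HTR1A, HTR1B and HTR4 outside the intestine.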
